A study of Mus musculus with 12 samples.

Results

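TCRBJ02-01 is the ImmunoSEQ name of the mouse joining segment Trbj2-1 of the T-cell receptor β chain. Its members were all deposited rearrangements whose J gene was called TCRBJ02-01, which were 34772 of 288925 rearrangements over 12 libraries. Of these, 25751 of 205925 were productive (in frame, without a stop codon), 8766 of 79915 were out of frame and 255 of 3085 held a stop codon. The productive members comprised 24095 distinct nucleotide rearrangements and 17324 distinct CDR3 amino acid sequences. The libraries were made from genomic DNA of CD8+ T cells of female C57BL/6 mice bearing MC38 tumours, a transplanted mouse colon carcinoma line, and all mice had received anti-CTLA-4 Ab and anti-PD-L1 Ab. Each of 3 experiments (A, B and C) gave 4 libraries: splenic CD27lo CX3CR1-, splenic CD27hi CX3CR1- and splenic CX3CR1+ CD8+ T cells, all isolated by flow cytometry, and CD8+ tumour-infiltrating lymphocytes (TILs) isolated on beads by positive selection for CD8. No untreated group was analysed here, the labels give no age, and the cells of 1 library are taken as a pool of mice. The group contrasts below rest on 3 experiments. Comparisons within libraries, such as productive against out-of-frame, count 12 libraries, although those of 1 experiment are taken to share mice. The libraries hold TCRβ DNA and no measurement of CD8, CD27 or CX3CR1, so the labelled cell types could not be checked against markers.

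A TCRβ chain is assembled in the thymus from a V, a D and a J segment. Nucleotides are trimmed from the segment ends and others are inserted at the joints, and the joined stretch encodes CDR3, the loop that makes most of the contact with the peptide held by an MHC molecule. The J segment supplies the end of CDR3, so all receptors that use one J gene share that end unless it was trimmed away. An out-of-frame rearrangement makes no receptor chain and survives in a cell that carries a productive rearrangement on its other allele, which is why such rearrangements are commonly used as a picture of J use before selection. In genomic DNA each template is 1 rearranged allele, so a template share refers to cells' alleles and not to RNA. The template counts are the platform's estimates, made without molecular identifiers. They varied with the J gene also where no receptor is made (below), so a template share is not an exact share of cells. A unique rearrangement counts once however large its clone is.

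In RefSeq's annotation of GRCm38.p6 (mm10), the build named in the labels, Trbj2-1 is a J segment of 50 bases at chr6:41542754-41542803. It is the first J segment of the second cluster, 577 bases after Trbd2, 153 bases before Trbj2-2 and 3926 bases before the constant region Trbc2. The reads were 87 bases long and ended within the J segment. All 3394 productive reads and all 1202 out-of-frame reads with no base trimmed from the segment carried the same J part, shown here because it is the stretch that all members share from its 3′ side:

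TCRBJ02-01, untrimmed part in the reads: TAACTATGCTGAGCAGTTC

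Read in frame, it gives NYAEQF, and the last F of the CDR3 ending NYAEQFF lies beyond the read. Of productive members, 31.2% ended in NYAEQFF, 69.9% in YAEQFF and 97.3% in AEQFF, and 0 productive rearrangements with another J gene ended in NYAEQFF. The next 3 sequences show 1 CDR3, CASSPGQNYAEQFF, written in 3 ways with the V gene TCRBV19-01. They are shown because this CDR3 was the only member CDR3 found in all 12 libraries and because TCRBV19-01 was the V partner with the largest rise described below. Each run starts at the first CDR3 codon and stops before the last, and capitals mark the J-derived bases:

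TCRBV19-01, in 10 libraries: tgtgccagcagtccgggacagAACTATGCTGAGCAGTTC
TCRBV19-01, in 8 libraries: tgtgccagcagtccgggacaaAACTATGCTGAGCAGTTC
TCRBV19-01, in 5 libraries: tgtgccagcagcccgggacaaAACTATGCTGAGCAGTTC

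In all 3, 1 base was trimmed from the J segment. The reads of the most abundant rearrangement of TCRBJ02-01 in each CX3CR1+ and TIL library follow, as the largest clones of this gene in the libraries dominated by large clones. Capitals again mark the J-derived bases:

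CX3CR1+ A, TCRBV03-01: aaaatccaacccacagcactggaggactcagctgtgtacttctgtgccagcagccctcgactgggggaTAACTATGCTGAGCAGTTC
CX3CR1+ B, TCRBV05-01: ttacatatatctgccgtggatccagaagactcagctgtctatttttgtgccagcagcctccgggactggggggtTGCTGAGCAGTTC
CX3CR1+ C, TCRBV17-01: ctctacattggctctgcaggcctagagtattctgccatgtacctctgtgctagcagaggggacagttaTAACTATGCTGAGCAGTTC
TIL A, TCRBV19-01: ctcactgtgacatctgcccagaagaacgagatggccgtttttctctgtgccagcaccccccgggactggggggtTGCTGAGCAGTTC
TIL B, TCRBV13-03: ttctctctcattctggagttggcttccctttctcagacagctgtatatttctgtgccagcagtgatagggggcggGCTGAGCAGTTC
TIL C, TCRBV17-01: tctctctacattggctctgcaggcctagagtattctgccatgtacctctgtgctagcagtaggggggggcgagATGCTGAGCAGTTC

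The clones of CX3CR1+ A and C kept the whole J part, whereas 5 to 7 bases were trimmed in TIL A to C and 6 in CX3CR1+ B. The rearrangements leading CX3CR1+ B and TIL A differ in V gene, and the CDR3s of both end in DWGVAEQFF.

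The libraries held 5892 (TIL A) to 110117 (CX3CR1+ C) productive templates and 1358 (TIL A) to 54598 (CD27hi CX3CR1- C) unique productive rearrangements with a resolved J gene, which are the totals of all shares below. The CX3CR1+ and TIL libraries were dominated by large clones and the TIL libraries were the shallowest. A rearrangement not seen in a library could still make up at most 0.00272% (CX3CR1+ C) to 0.0509% (TIL A) of its templates, the share that 3 templates would give. The Wilson 95% intervals and these limits cover counting error only. The files name 14 J genes, and 12 were tested, since TCRBJ01-07 and TCRBJ02-06 had under 10 productive rearrangements in at least 1 library.

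TCRBJ02-01 made up a larger share of unique productive rearrangements in the CX3CR1+ and TIL libraries than in either CX3CR1- subset. The share was 12.1%, 12.2% and 12.1% in CD27lo CX3CR1- A, B and C. It was 12.4%, 12.2% and 12.5% in CD27hi CX3CR1- A, B and C. These 6 values lay close together, between 12.1% and 12.5%. The share was 14.0%, 13.6% and 13.3% in CX3CR1+ A, B and C. It was 13.1%, 14.7% and 15.0% in TIL A, B and C, with Wilson 95% intervals as wide as 11.4% to 15.0% in TIL A. The lowest of the 6 CX3CR1+ and TIL libraries, at 13.1%, was thus above the highest CX3CR1- library, at 12.5%. In order, the group means were 14.3% ± 1.01 (TILs), 13.6% ± 0.397 (CX3CR1+), 12.4% ± 0.169 (CD27hi CX3CR1-) and 12.1% ± 0.0965 (CD27lo CX3CR1-; SD, n = 3 each).

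**Figure D1:**
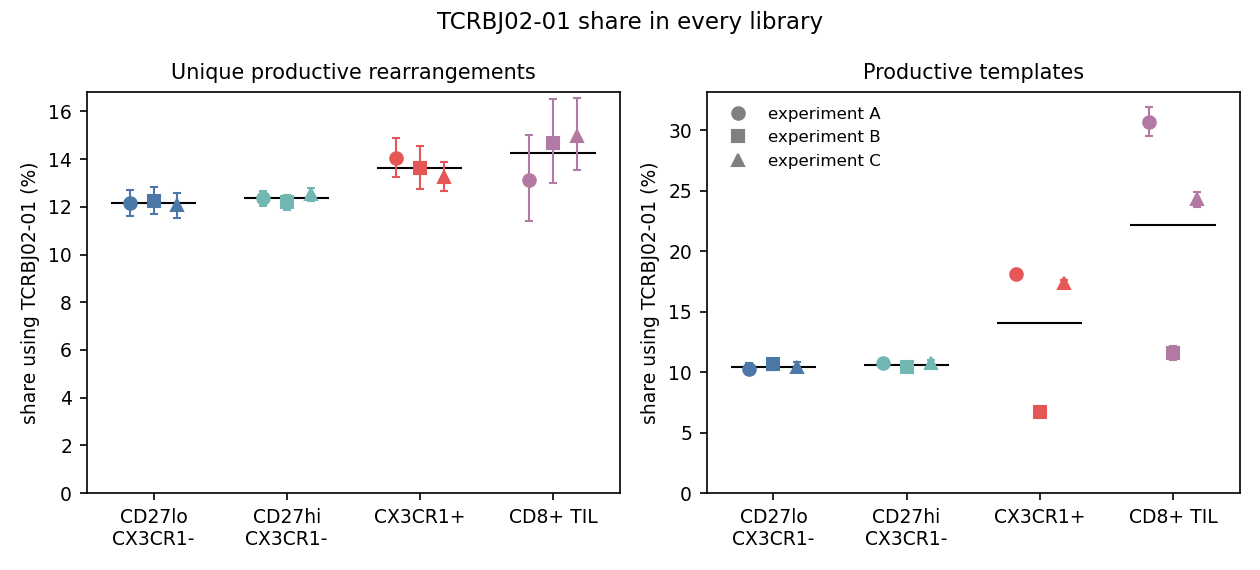
Share of TCRBJ02-01 (percent) among unique productive rearrangements (left) and among productive templates (right) in each of the 12 libraries, by group. Marker shapes stand for experiments A, B and C, bars for Wilson 95% intervals and horizontal lines for group means. On the left all CX3CR1+ and TIL libraries lie above all CX3CR1- libraries, and on the right CX3CR1+ B lies below them at 6.69%.

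The CX3CR1+ and TIL libraries exceeded the CX3CR1- libraries by 1.70 points ± 0.327 (SD over 3 experiments). The excess was 1.32, 1.93 and 1.83 points in experiments A, B and C. A two-sided exact permutation test within experiments gave p = 0.00926, the smallest that the design allows, and adjustment over the 5 contrasts of the report's measures gave 0.0463. At the expected share for the template number of the shallowest library the contrast was 2.83 points (p = 0.00926 by the same exact permutation test). The CX3CR1- libraries then had 10.6% to 11.2%, near their template shares of 10.3% to 10.8%, and TIL A had 13.1%. Template number varied with the J gene (below), so this value does not set apart the effect of depth. Against the CX3CR1- subsets, CX3CR1+ libraries were higher by 1.39 points ± 0.413 and TILs by 2.00 points ± 1.00, each with an exact permutation p of 0.037, the smallest that 27 arrangements allow. Neighbours within these sides of the contrast were not shown to differ. TILs minus CX3CR1+ was 0.617 points ± 1.39 (higher in 2 of 3 experiments, exact sign-flip p = 0.50), and CD27lo minus CD27hi was -0.205 points ± 0.266 (p = 0.50). The smallest p of this last test is 0.25.

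Set among the 12 J genes, TCRBJ02-01 had the second highest mean share of unique rearrangements (13.1%), after TCRBJ02-07 (21.6%) and before TCRBJ02-05 (10.5%). Its rise was the largest of the 12 and it was the 1 J gene whose 6 CX3CR1+ and TIL libraries all lay above all CX3CR1- libraries. With Benjamini-Hochberg adjustment over the 12 J genes its p was 0.111, and the share of J genes called was 0% (0 of 12) for unique rearrangements. A single J gene at the smallest exact p cannot fall below this adjusted value, although several J genes tied there could. The J genes whose unique share followed it most closely over the 12 libraries were TCRBJ02-02 (Pearson r = 0.384), TCRBJ01-06 (r = 0.382) and TCRBJ01-03 (r = 0.138). These correlations are weak, and the strongest were negative, with TCRBJ01-02 (r = -0.778) and TCRBJ01-05 (r = -0.594), both named after their values were seen. All shares of a library sum to the same total, and the libraries fall into groups.

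By templates the share of TCRBJ02-01 varied far more between CX3CR1+ and TIL libraries. It was 10.3%, 10.6% and 10.4% of productive templates in CD27lo CX3CR1- A, B and C, and 10.8%, 10.4% and 10.7% in CD27hi CX3CR1-. It was 18.1%, 6.69% and 17.4% in CX3CR1+ A, B and C. In TIL A, B and C it was 30.7%, 11.5% and 24.3%. In experiment B the CX3CR1+ library was thus the lowest of all 12 and the TIL library was the lowest of its group. The contrast was 7.57 points ± 7.98 (13.9, -1.40 and 10.3 in experiments A, B and C), with an exact permutation p of 0.037, 0.0926 after adjustment over the 5 contrasts and 0.0889 over the 12 J genes, of which again 0% were called. It did not pass the adjusted threshold. Without the 100 most abundant rearrangements of each library it was 3.37 points (exact permutation p = 0.00926, the smallest possible). By the same exact permutation test it was 3.51 points without the TIL libraries (p = 0.222), and without experiment A it was 4.43 points (p = 0.222), without B 12.1 points (p = 0.0556) and without C 6.23 points (p = 0.222). TILs exceeded the CX3CR1+ library of the same experiment by 8.12 points ± 4.02, in 3 of 3 experiments (exact sign-flip p = 0.25, the smallest possible).

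The V gene TCRBV19-01 showed the largest rise among the partners of TCRBJ02-01, above all in TILs. TCRBV19-01 is 1 of the V genes that supply the start of CDR3, CASS, together with the first loops of the receptor. The TCRBV19-01 TCRBJ02-01 pair made up 0.994%, 0.946% and 0.937% of unique productive rearrangements in CD27lo CX3CR1- A, B and C. It made up 0.947%, 0.993% and 0.991% in CD27hi CX3CR1-. It made up 1.60%, 1.66% and 1.41% in CX3CR1+ A, B and C. In TIL A, B and C it made up 2.28%, 3.56% and 3.70%, from 31, 55 and 80 rearrangements. The 3 ranges did not overlap, and TILs were highest in each experiment. In edgeR's quasi-likelihood fit of all 251 tested V–J pairs, this pair was 2.31-fold higher in CX3CR1+ and TIL libraries (log2 fold change 1.21 ± 0.09 SE, adjusted p = 8.9e-36 with Benjamini-Hochberg), the lowest p of the 251. The fit shares its spread over all pairs. On the 12 values alone the difference was 1.40 points ± 0.374 and its exact permutation p was 0.00926, the smallest possible. The same 12 libraries had singled out this pair among the 251, so this p is no separate support.

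Among unique TCRBJ02-01 rearrangements, TCRBV19-01 took 7.66% to 8.19% in the 6 CX3CR1- libraries, 11.4%, 12.2% and 10.6% in CX3CR1+ A, B and C, and 17.4%, 24.2% and 24.7% in TIL A, B and C. Among rearrangements of all other J genes, the same V gene took 7.14% to 7.68% in the CX3CR1- libraries, 7.58% to 8.05% in the CX3CR1+ libraries and 6.74% to 8.16% in TILs. Weighted by templates, the pair held 0.826% to 0.909% of the CX3CR1- libraries, 2.51%, 0.943% and 3.28% of CX3CR1+ A, B and C, and 17.4%, 2.39% and 6.14% of TIL A, B and C. The rise was also seen among rearrangements of a single template, where large clones have no weight. There the pair made up 1.06% to 1.23% in CX3CR1- libraries, 1.36% to 1.504% in CX3CR1+ libraries and 1.65% to 3.20% in TILs.

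With TCRBV19-01 rearrangements left out of both the gene's count and the total, the contrast in unique TCRBJ02-01 share fell from 1.70 to 0.535 points ± 0.052 (exact permutation p = 0.0833), 31.5% of the whole. This alternative was chosen after the data were seen, for the V gene whose pair had risen most. A smaller contrast, above all in TILs, followed from that choice, so the p-values here are no independent test. The remaining share was 12.0% to 12.5% in the CX3CR1- libraries, 12.9% to 13.6% in the CX3CR1+ libraries and 11.9%, 12.3% and 12.6% in TIL A, B and C. CX3CR1+ libraries were then still higher by 0.986 of the 1.39 points (exact permutation p = 0.037, the smallest possible), whereas TILs differed by 0.0839 of the 2.00 points (exact p = 0.63). By templates the contrast without this V gene was 3.81 points (exact permutation p = 0.0556), 50.4% of the whole.

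**Figure D2:**
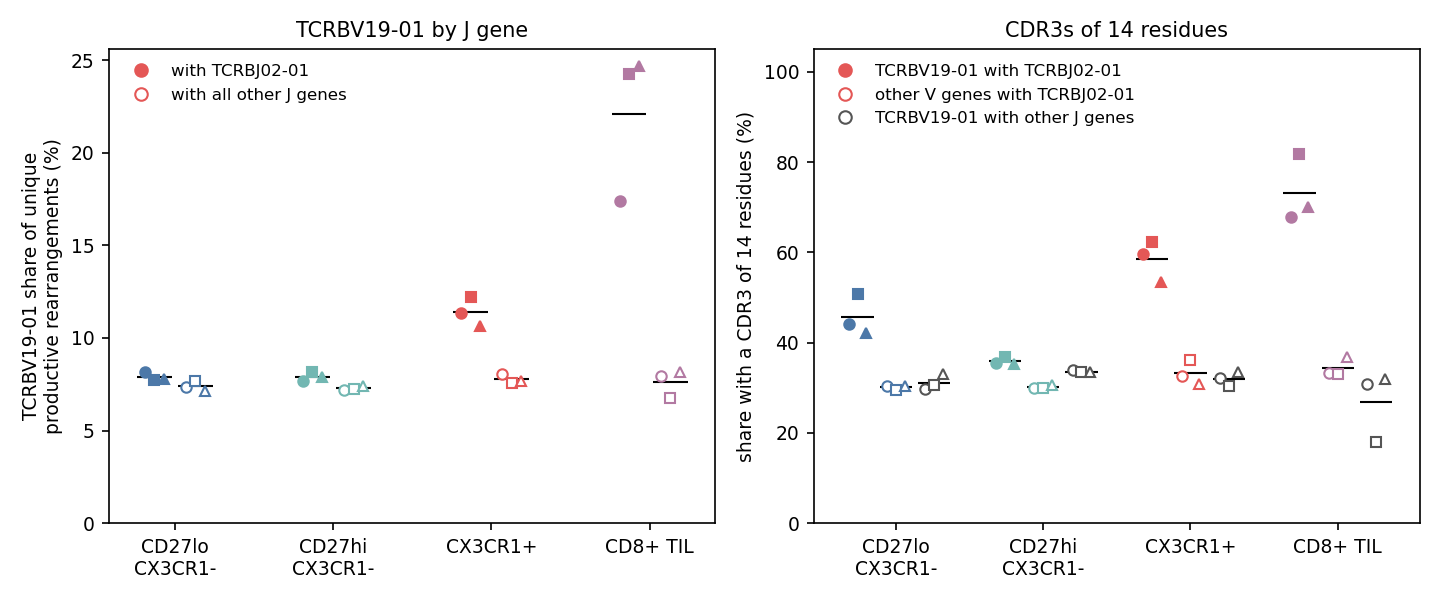
Left, percent of unique productive rearrangements using TCRBV19-01 among those with TCRBJ02-01 (filled) and with other J genes (open) in each library. Right, percent of CDR3s of 14 residues among the TCRBV19-01 TCRBJ02-01 pair (filled), other V genes with TCRBJ02-01 (open, in group colour) and TCRBV19-01 with other J genes (open, grey). The filled points rise from CX3CR1- to TIL libraries, to 24.7% on the left in TIL C, while the open points on the left stay between 6.74% and 8.16%.

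Of 22 tested V partners of TCRBJ02-01, 3 were called higher and 0 lower in the CX3CR1+ and TIL libraries at an adjusted p under 0.05 (edgeR's quasi-likelihood test, Benjamini-Hochberg over 251 V–J pairs). Over all 251 pairs, 3.19% were called higher and 1.99% lower. The median log2 fold change was 0.08 over the 22 partners and -0.05 over all pairs. The other partners called by edgeR were TCRBV29-01 (1.51-fold, log2 0.59 ± 0.13 SE, adjusted p = 0.000496) and TCRBV13-03 (1.32-fold, log2 0.40 ± 0.13 SE, adjusted p = 0.0401). TCRBV29-01 with TCRBJ02-01 made up 0.536% to 0.703% of CX3CR1- libraries, 0.981%, 0.967% and 0.7003% of CX3CR1+ A, B and C and 0.663%, 1.16% and 1.30% of TIL A, B and C, so that CX3CR1+ C and TIL A lay within the CX3CR1- range. TCRBV13-03 with TCRBJ02-01 made up 0.742% to 0.863% of CX3CR1- libraries and 0.736% to 1.29% of the others, again with overlap. Without experiment C 1 of 20 tested partners was called, against 7 of 235 pairs of all J genes. Among rearrangements of at least 2 templates 10 of 19 partners were called. Calls were then more frequent over all J genes too, at 60 of 165 pairs.

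**Figure D3:**
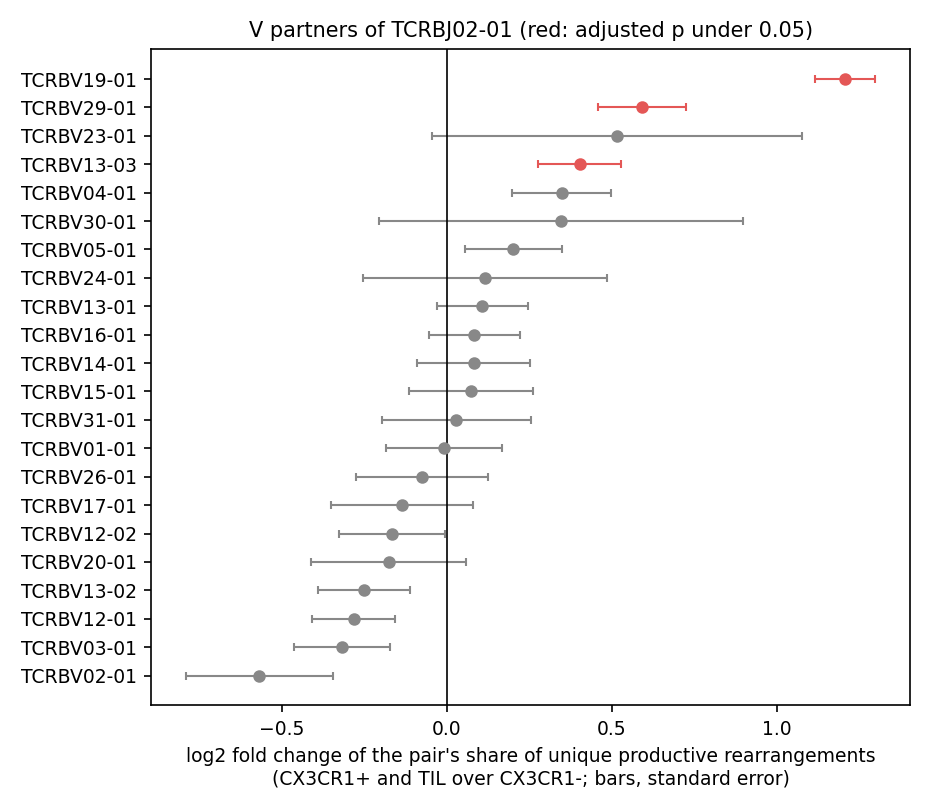
Log2 fold change (± SE, edgeR) of the share of unique productive rearrangements in CX3CR1+ and TIL libraries against CX3CR1- libraries for the 22 tested V partners of TCRBJ02-01. Red points were called at an adjusted p under 0.05, and TCRBV19-01 stands farthest from 0 at 1.21.

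The 5 partners holding the most unique members were TCRBV12-01 (2399), TCRBV19-01 (2251), TCRBV13-02 (2079), TCRBV13-03 (1690) and TCRBV03-01 (1670). Averaged over the 12 libraries, TCRBV12-01 took 8.12% ± 1.68 of TCRBJ02-01 rearrangements against 7.48% of those with other J genes. TCRBV19-01 took 12.3% ± 6.34 against 7.52% and was higher in 12 of 12 libraries. TCRBV13-02 took 7.33% ± 1.79 against 9.25% and was lower in 12 of 12. TCRBV13-03 took 6.96% against 6.33% and TCRBV03-01 5.92% against 6.99%, without one direction across libraries. Of these 5, TCRBV19-01 and TCRBV13-02 thus kept one direction in every library.

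The CDR3s of TCRBJ02-01 shifted towards 14 residues in the CX3CR1+ and TIL libraries. CDR3s of 14 residues made up 31.4%, 30.6%, 36.1% and 43.1% of unique TCRBJ02-01 rearrangements in CD27lo CX3CR1-, CD27hi CX3CR1-, CX3CR1+ and TIL libraries (group means, n = 3). With other J genes they made up 30.3%, 30.4%, 30.1% and 29.7%. Within the TCRBV19-01 TCRBJ02-01 pair the share was 45.7% ± 4.57, 35.9% ± 0.857, 58.5% ± 4.59 and 73.2% ± 7.56 (SD, n = 3). With other V genes TCRBJ02-01 gave 30.1%, 30.1%, 33.2% and 34.5%, and TCRBV19-01 with other J genes gave 31.1%, 33.6%, 32.0% and 26.9%. These shares were looked at after the pair had been found, so no test is given.

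Many of these 14-residue CDR3s read CASSxGxxYAEQFF, where x is any residue, a pattern chosen after the sequences were seen and given without a test. Within the pair it made up 12.4%, 22.1% and 15.9% of unique rearrangements in CD27lo CX3CR1- A, B and C and 9.68%, 9.28% and 8.32% in CD27hi CX3CR1-. It made up 30.7%, 33.3% and 23.0% in CX3CR1+ A, B and C and 41.9%, 41.8% and 42.5% in TIL A, B and C. In all, 358 of the 2251 members with TCRBV19-01 had it, in 127 CDR3s and 215 nucleotide sequences, and 52 of the CDR3s were found in at least 2 libraries. With other V genes 1245 of 23500 members had it. The most widely shared with TCRBV19-01 were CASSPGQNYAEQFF and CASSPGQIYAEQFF (10 libraries each) and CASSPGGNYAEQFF, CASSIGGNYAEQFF, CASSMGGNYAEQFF and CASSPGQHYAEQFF (9 each). The first had 28, 23, 1111 and 441 templates in the CD27lo CX3CR1-, CD27hi CX3CR1-, CX3CR1+ and TIL libraries. Of the 3 encodings printed above, the first had 151 templates in all and the third 34, while the second had 670, of which 316 were in CX3CR1+ C and 314 in TIL C.

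Member CDR3s were mostly private to a library: 14452 of 17324 were seen in 1, 1697 in 2, and 8 in 11. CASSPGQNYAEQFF, over all V genes, had 3, 11 and 19 templates in CD27lo CX3CR1- A, B and C, 3, 19 and 19 in CD27hi CX3CR1-, 37, 75 and 1002 in CX3CR1+ and 4, 25 and 414 in TILs. It was encoded by 31 nucleotide sequences with 12 V genes. Among those in 11 libraries were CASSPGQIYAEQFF, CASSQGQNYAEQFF, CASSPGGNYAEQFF and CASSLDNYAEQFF, of which the first 3 had most of their templates with TCRBV19-01 and the last with TCRBV03-01. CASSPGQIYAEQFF had 1, 7 and 0 templates in CD27lo CX3CR1- and 4, 4 and 1 in CD27hi CX3CR1-, against 19, 112 and 57 in CX3CR1+ and 3, 102 and 1 in TILs.

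Large clones using TCRBJ02-01 were found in the CX3CR1+ and TIL libraries. Clones above 0.1% of productive templates that used TCRBJ02-01 numbered 24 of 142, 10 of 126 and 28 of 148 in CX3CR1+ A, B and C. They numbered 23 of 115, 18 of 128 and 34 of 135 in TIL A, B and C. In the CX3CR1- libraries 2 such clones were found, both in CD27lo CX3CR1- C. Large clones of any J gene were few there. By another threshold and over all J genes, 63 and 40 productive rearrangements had 10 or more templates in the CD27lo and CD27hi CX3CR1- libraries. The CX3CR1+ libraries held 2126 and the TILs 441. The share of large clones that used TCRBJ02-01 is therefore not compared with the CX3CR1- libraries. Of the large TCRBJ02-01 clones, 5, 1 and 8 used TCRBV19-01 in CX3CR1+ A, B and C and 11, 4 and 17 in TIL A, B and C. The 10 largest TCRBJ02-01 clones held 60.5%, 38.2% and 46.8% of the gene's templates in CX3CR1+ A, B and C and 79.3%, 62.0% and 60.4% in TIL A, B and C. In the CX3CR1- libraries they held 0.638% to 5.21%, and no comparison of these shares with other J genes is made here.

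The clone leading TIL A, with TCRBV19-01, had 801 templates, 13.6% of the library (Wilson 95% interval 12.7% to 14.5%) and 44.3% of its TCRBJ02-01 templates. The identical sequence had 404 templates in CX3CR1+ A, 1 in CD27lo CX3CR1- A and 2 in CD27hi CX3CR1- A, and 0 in experiments B and C. The clone leading CX3CR1+ A, with TCRBV03-01, had 2356 templates (4.24%), with 1 and 11 in the CD27lo and CD27hi CX3CR1- libraries of that experiment and 0 in its TILs. The clone leading CX3CR1+ C, with TCRBV17-01, had 1966 templates (1.79%), and 128 templates in TIL C. Leading clones of CX3CR1+ libraries were thus sometimes present in TILs and sometimes not detected there.

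The clone leading CX3CR1+ B, with TCRBV05-01, had 433 templates (0.849%) and was absent from TIL B, but the same nucleotide sequence was found in experiments A and C (3 templates in CX3CR1+ A, 1 in TIL A, 7 in CX3CR1+ C and 9 in TIL C). The clone leading TIL B, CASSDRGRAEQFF with TCRBV13-03, had 270 templates (2.18%) and 55 in CX3CR1+ B. Over all nucleotide sequences this CDR3 had 1478, 55 and 28 templates in CX3CR1+ A, B and C and 14, 271 and 171 in TILs, against 19, 0 and 1 in CD27lo CX3CR1- and 15, 1 and 0 in CD27hi CX3CR1-. It was written by 14 nucleotide sequences with 4 V genes, and 973 of the templates in CX3CR1+ A came from 1 of them. The clone leading TIL C, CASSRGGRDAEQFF with TCRBV17-01, had 394 templates (2.03%) and 556 in CX3CR1+ C. By CDR3, the most abundant of TIL C was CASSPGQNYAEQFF with 414 templates.

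TIL rearrangements were looked for, by identical nucleotide sequence, in the splenic libraries of the same experiment. For TCRBJ02-01, 31.5%, 39.6% and 49.4% of unique TIL rearrangements in experiments A, B and C occurred with the identical sequence in the CX3CR1+ library, against 12.9%, 13.2% and 13.0% in CD27lo CX3CR1- and 11.8%, 11.9% and 14.8% in CD27hi CX3CR1- libraries. For other J genes the share found in CX3CR1+ was 18.6%, 37.8% and 45.9%. TCRBJ02-01 was higher in 3 of 3 experiments, by 6.04 points ± 5.92, which an exact sign-flip test over 3 experiments could not call (p = 0.25, the smallest possible). By templates the shared part was 81.7%, 84.3% and 89.9% for TCRBJ02-01 and 56.0%, 85.8% and 87.3% for other J genes (difference 8.92 points ± 14.6, exact sign-flip p = 0.50). The libraries differ in depth, and its part in these shares was not tested.

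The share of TCRBJ02-01 depended on the number of templates of a rearrangement, differently in each group. Among productive rearrangements of 1 template it was 14.9% ± 0.188, 14.9% ± 0.245, 15.8% ± 1.08 and 15.3% ± 2.14 in CD27lo CX3CR1-, CD27hi CX3CR1-, CX3CR1+ and TIL libraries (SD, n = 3). Among those of at least 2 templates it was 6.03% ± 0.818, 4.71% ± 0.370, 10.8% ± 1.03 and 13.0% ± 1.40. With single-template rearrangements alone the contrast was 0.663 points (exact permutation p = 0.278), and with those of at least 2 templates it was 6.55 points (p = 0.00926, the smallest possible). The excess of unique productive rearrangements in the CX3CR1+ and TIL libraries thus lay mostly among those seen more than once. In those groups the share was 14.0% ± 0.684 and 16.1% ± 1.84 at 3 to 9 templates and 12.7% ± 1.87 and 20.8% ± 5.96 at 10 or more. The pattern was not particular to productive rearrangements. Among out-of-frame ones of at least 2 templates the share was 5.96% ± 0.763, 4.20% ± 0.303, 9.38% ± 0.385 and 12.0% ± 2.59 in CD27lo CX3CR1-, CD27hi CX3CR1-, CX3CR1+ and TIL libraries.

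**Figure D4:**
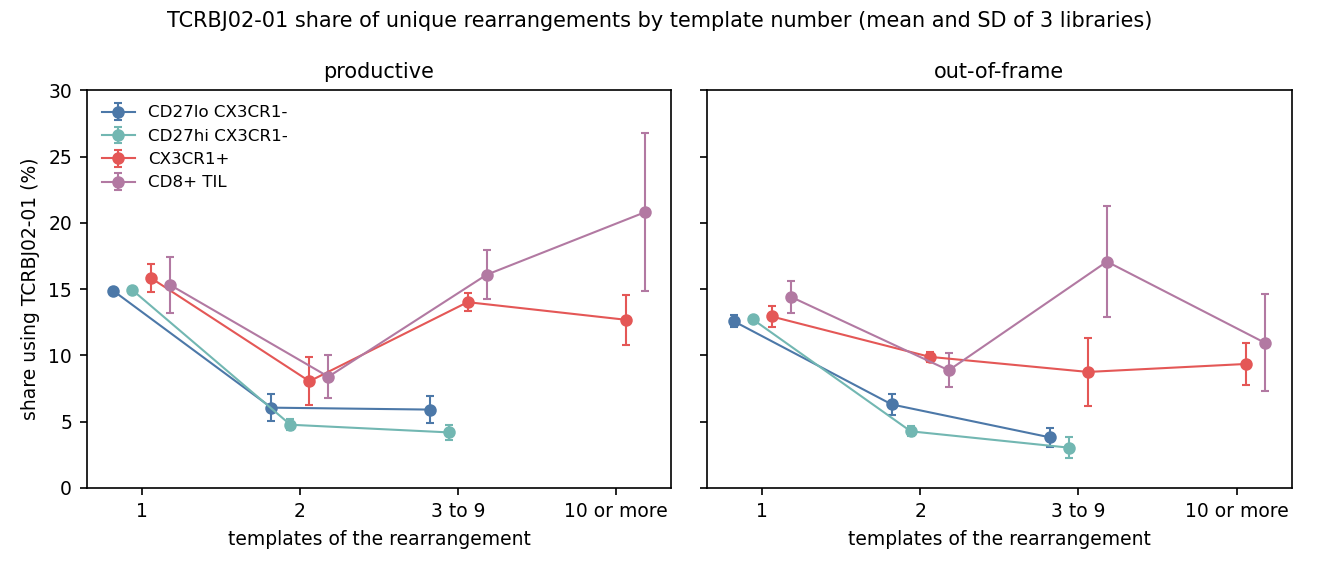
Percent of rearrangements using TCRBJ02-01 by their number of templates (1, 2, 3 to 9, 10 or more), for each group (mean ± SD of 3 libraries; classes with under 100 rearrangements are not drawn). In CX3CR1- libraries the productive share falls from about 14.9% at 1 template, whereas in TILs it is highest, 20.8%, at 10 or more.

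In the CX3CR1- libraries the share among rearrangements of at least 2 templates divided by that among single ones was 0.360 ± 0.0635 for productive and 0.402 ± 0.0917 for out-of-frame TCRBJ02-01 rearrangements (SD, n = 6). The ratio was 7.14 and 5.50 for TCRBJ02-07 and 0.0732 and 0.0828 for TCRBJ01-06, so template number varied with the J gene also where no receptor is made. The part of amplification in this was not tested. Mean templates per TCRBJ02-01 rearrangement were 1.10 to 1.22 in the CX3CR1- libraries against 1.29 to 1.44 for other J genes. They were 10.0, 4.48 and 12.6 in CX3CR1+ A, B and C against 7.42, 9.86 and 9.17, and 10.2, 6.30 and 14.5 in TIL A, B and C against 3.46, 8.30 and 8.004. Experiment B alone had fewer templates per TCRBJ02-01 rearrangement than per other rearrangement in these groups. Among the 100 most abundant productive rearrangements, TCRBJ02-01 took 2 to 8 in CX3CR1- libraries, 15, 7 and 19 in CX3CR1+ and 19, 14 and 26 in TILs. Over all 12 libraries the share in the top 100 minus that among single-template ones was -4.08 points ± 7.56, higher in 3 of 12 (exact sign-flip p = 0.0884).

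TCRBJ02-01 was more frequent among productive than among out-of-frame rearrangements. Its out-of-frame share was 10.4%, 11.0% and 10.9% in CD27lo CX3CR1- A, B and C, 11.2%, 10.8% and 10.6% in CD27hi CX3CR1-, 11.9%, 11.5% and 11.1% in CX3CR1+ and 15.0%, 12.2% and 13.1% in TILs. The productive share exceeded it by 1.45 points ± 1.14 (SD over 12 libraries), in 11 of 12 libraries. The exception was TIL A, where it was 1.88 points lower from 94 out-of-frame rearrangements. The exact sign-flip p over 12 libraries was 0.00439 (0.0105 after adjustment over 12 J genes), and over the 3 experiments it was 0.25, the smallest possible. Of the 12 J genes, 50% were called, and 16.7% were called higher, namely TCRBJ02-01 and TCRBJ01-01. Without experiment B the difference was 1.28 points (exact sign-flip p = 0.0547), and by templates it was 2.76 points (p = 0.448).

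**Figure D5:**
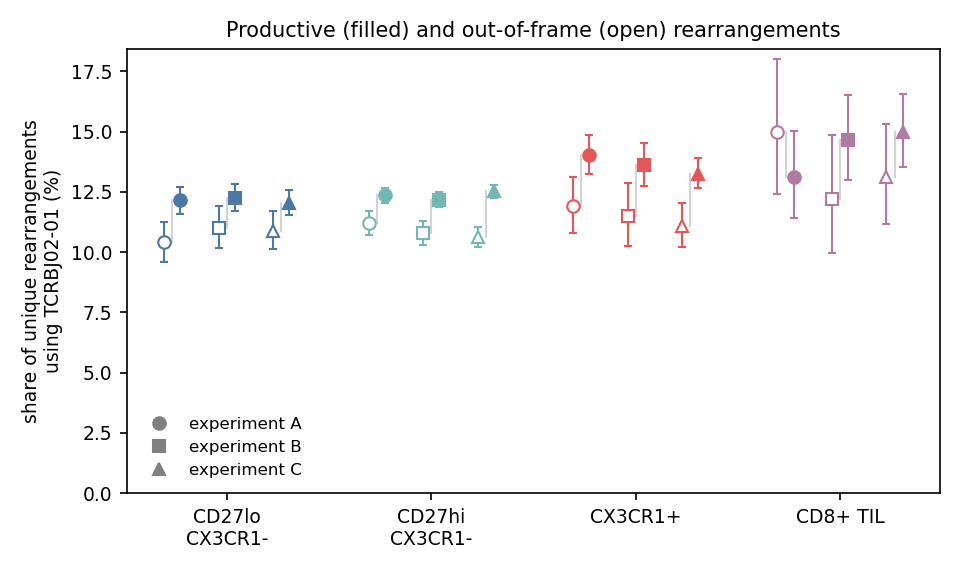
Percent of unique rearrangements using TCRBJ02-01 among productive (filled) and out-of-frame (open) rearrangements of each library, with Wilson 95% intervals. The filled point lies above the open one in 11 of 12 libraries, with TIL A the exception at 13.1% against 15.0%.

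The out-of-frame share also rose in CX3CR1+ and TIL libraries, by 1.65 points ± 0.894 (exact permutation p = 0.00926, the smallest possible). The productive minus out-of-frame difference was not shown to vary with the group (contrast 0.0457 points, exact permutation p = 0.981). Some out-of-frame rearrangements differed by 1 inserted or deleted base from a productive rearrangement of at least 20 templates in the same library. They made up 36 of 352, 17 of 262 and 45 of 503 out-of-frame TCRBJ02-01 rearrangements in CX3CR1+ A, B and C (10.2%, 6.49% and 8.95%). They made up 11 of 94, 11 of 83 and 25 of 135 in TIL A, B and C (11.7%, 13.3% and 18.5%), and 0 in the CX3CR1- libraries. Over all J genes they made up 4.81%, 4.87% and 3.60% in CX3CR1+ and 4.94%, 8.97% and 8.25% in TILs. Only 63 and 40 productive rearrangements of the CD27lo and CD27hi CX3CR1- libraries had even 10 or more templates, so few copies could be found there. Without such copies, left out after the data were seen, the out-of-frame contrast was 0.882 points (p = 0.0648), and the productive excess was 1.84 points ± 1.14 (11 of 12 libraries, exact sign-flip p = 0.000977). The contrast of the productive minus out-of-frame difference was then 0.814 points ± 1.11, higher in 2 of 3 experiments (exact permutation p = 0.25). The out-of-frame TCRBV19-01 TCRBJ02-01 pair was higher by 0.602 points ± 0.241 (exact permutation p = 0.0185), from 15, 10 and 17 rearrangements in TIL A, B and C. Without the copies it was higher by 0.305 points (exact permutation p = 0.1204), from 8, 10 and 12 rearrangements in TIL A, B and C.

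Of 24 V partners tested between productive and out-of-frame rearrangements, 12 were higher and 8 lower among productive ones, against 37.2% higher and 41.0% lower of all 261 V–J pairs (edgeR's quasi-likelihood test, adjusted p under 0.05). The lowest in edgeR's fit were TCRBV21-01 (9.37-fold lower, adjusted p = 5.0e-27), TCRBV22-01 (8.28-fold lower, a pseudogene in RefSeq) and TCRBV24-01, which made up 0.116% ± 0.0246 of productive and 0.665% ± 0.141 of out-of-frame rearrangements with this J gene as its partner (log2 -2.67 ± 0.11 SE, adjusted p = 6.6e-115). TCRBV20-01 and TCRBV31-01 followed (1.55-fold and 1.48-fold lower). The highest were TCRBV14-01 (2.27-fold), TCRBV29-01 (2.02-fold), TCRBV13-03 (1.81-fold), TCRBV12-01 (1.79-fold) and TCRBV12-02 (1.76-fold). TCRBV19-01 was 1.33-fold higher (edgeR's adjusted p = 3.3e-07) and TCRBV29-01 was above its out-of-frame share in 12 of 12 libraries. This fit counted the 12 libraries as separate, although those of an experiment are taken to share mice. Its p-values therefore do not measure the spread between experiments. Whether rearrangements of both kinds are amplified alike was not tested.

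The CDR3s of TCRBJ02-01 were 42.4 to 43.0 nucleotides long on average, against 41.5 to 41.8 for other J genes, and were longer in 12 of 12 libraries. Mean length was not shown to differ between groups (contrast 0.04 nucleotides ± 0.176, exact permutation p = 0.713). Inserted nucleotides averaged 3.15 to 3.49, against 3.44 to 3.60 for other J genes (contrast -0.02 ± 0.127, exact permutation p = 0.731). From the J segment 2.88 to 3.42 nucleotides were trimmed, against 2.69 to 2.84 (contrast -0.11 ± 0.174, exact permutation p = 0.0926). Relative to other J genes trimming was lower by 0.16 nucleotides ± 0.141 in CX3CR1+ and TIL libraries (exact permutation p = 0.0278), lower in 3 of 3 experiments, but this value turned positive when rearrangements of at least 2 templates were taken (0.08, p = 0.435). Averaged over the 12 libraries, 12.4% of productive members kept the whole J part, 19.1% had lost 1 nucleotide, 19.99% had lost 3 and 11.0% had lost 7. The D segment Trbd2 was used by 55.8% to 64.5% of members with a resolved D, against 58.5% to 63.9% for other J2 genes and 6.67% to 11.5% for J1 genes, which lie upstream of Trbd2.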

How the data were processed

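Genomic DNA of the 12 libraries had been amplified and sequenced by the authors with the immunoSEQ TCRβ kit on an Illumina NextSeq, and the labels name mm10. The deposited tables give, per rearrangement, a template count made by the ImmunoSEQ platform, which calls V, D and J genes, frame, CDR3 length, insertions and J deletions. The authors' counts were used as deposited. Versions of the platform's software are not given in the sources used here. Each table was 1 library, and groups and experiments came from the labels.

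Shares were taken over rearrangements with a resolved J gene. A further 305 of 288925 had none, and no tie among them named TCRBJ02-01. Groups were compared by two-sided exact permutation tests with the experiment as block, as in the study's repeated-measures analyses, and productive with out-of-frame shares by exact sign-flip permutation tests over libraries. V–J pairs with at least 10 rearrangements in at least 3 libraries entered edgeR 4.0.16 (quasi-likelihood, R 4.3.3), with DESeq2 1.42.0 as an alternative, in which the experiment (groups) or the library (frame) was a term. P-values were adjusted by Benjamini-Hochberg over the 12 J genes, over 5 contrasts, or over all pairs. Tables were handled with pandas 2.3.3 under Python 3.11.15, and exact tests ran in numpy 2.4.6 and scipy 1.17.1. The tests were tested on simulated data. Libraries of an experiment were paired through the experiment code in the labels. As a check, deviations from group means in the unique share correlated between -1.00 and 0.434 over the 6 pairs of groups, above 0.1 in 2 of 6.

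The members and lists were chosen with earlier results of these data known. Named V genes were the 5 partners with most unique members and up to 5 called pairs with the largest fold change in each direction. Named rearrangements were the most abundant of each library and those CDR3s found in most libraries, of which those the results turn on are given. Alternatives covered the block, each experiment left out, rearrangements of at least 2 templates, weighting by templates, the J denominator, equal depth, tools, filters and normalization. Added after the data were seen were single-template rearrangements, near copies by 1 substitution (at least 50 times fewer templates; 0 found), out-of-frame copies by 1 inserted or deleted base, and leaving out TCRBV19-01 or the TIL libraries. Amplification without molecular identifiers means that templates are the platform's estimates.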

Additional observations from a re-analysis of the deposited data

How the results depend on the processing

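Contrasts are CX3CR1+ and TIL libraries minus CX3CR1- libraries, in percentage points or nucleotides, and the cause of the changes was not tested. The threshold here is an unadjusted exact p of 0.05, or for counts of called pairs a change by 1.5 times. Of the alternatives to the main results, 54 kept their direction and their side of it, 15 became weaker by crossing it, 3 became stronger and 6 changed sign. For the unique share, the contrast was 2.83 at equal depth, 0.663 with single-template rearrangements only, 0.535 without TCRBV19-01 and 1.58 to 1.88 with 1 experiment left out (each p = 0.0556, the smallest exact permutation p with 2 experiments). For the template share it was 3.37 without the 100 most abundant rearrangements, 3.51 without TILs, 3.81 without TCRBV19-01 and 4.43 to 12.1 with 1 experiment left out. With no replicate block, exact permutation gave p = 0.00216 for the unique and 0.0476 for the template share, and the pairing by experiment changed no call. The contrasts in mean CDR3 length (-0.0642 to 0.102 leaving out 1 experiment, -0.0732 weighted by templates), insertions (-0.0656 to 0.0550, 0.150 at 2 or more templates, 0.288 weighted) and J trimming (0.234 weighted) changed sign. Relative to other J genes they changed sign too, for length (-0.0548 to 0.165, -0.543 at 2 or more templates, -0.0714 weighted), insertions (-0.138 to 0.0198, 0.0636, 0.455) and trimming (0.0845, 0.491). The productive minus out-of-frame share was 1.28 to 1.79 with 1 experiment left out, 2.76 by templates and 0.765 at 2 or more templates. Its contrast ranged from -0.423 to 0.735 with 1 experiment left out, was -0.175 without experiment C and was 0.814 without the copies by 1 inserted or deleted base. The share in the 100 most abundant minus single-template rearrangements was -5.31 to -2.04, and -4.28 for the 200 most abundant (exact p = 0.0493). Between groups 10 of 19 V partners were called at 2 or more templates, against 60 of 165 pairs of all J genes. Leaving out 1 experiment, 1 to 3 were called, against 7 to 9 pairs of all J genes. Between frames 9 of 20 were called at 2 or more templates, against 95 of 174 pairs. Leaving out 1 experiment, 17 to 18 were called there, against 176 to 188 pairs. The 1358 to 2162 unique rearrangements of the TIL libraries limit their precision.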

Other observations

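In CX3CR1+ B, 35.1% of out-of-frame templates used TCRBJ02-01, against 3.52% to 18.7% in the other libraries. One out-of-frame rearrangement with TCRBV13-03 held 5754 templates, 28.9% of all out-of-frame templates of that library, and without it the share was 8.72%. The same sequence had 44, 50 and 101 templates in the CD27lo CX3CR1-, CD27hi CX3CR1- and TIL libraries of experiment B and 0 in experiments A and C.

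The CDR3 ending DWGVAEQFF, looked up after the leading clones had been seen, was carried by 28 CDR3s and 42 nucleotide rearrangements with 15 V genes and was found in all 12 libraries. It had 420, 443 and 26 templates in CX3CR1+ A, B and C, 810, 1 and 15 in TIL A, B and C, and 1 to 13 in each CX3CR1- library. These values are given without a test.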
